A study of Mus musculus with 4 samples.

Results

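Expression of 10 genes of the LIF-STAT3 pathway was followed in mouse E14 embryonic stem cells with and without Cas9 targeting of Ssrp1. The genes encode the receptor chains Lifr and Il6st, the kinases Jak1 and Jak2, the transcription factor Stat3, and 5 genes described as STAT3 targets: Socs3, Pim1, Pim2, Pim3 and Gbx2. They were taken by symbol from the count table, which holds 55353 symbols, and all 10 were found in it and passed the filter on low counts. There were 2 libraries of wild-type cells (control 1 and 2) and 2 of cells whose genotype label is Ssrp1 KO (labelled knockout 1 and 2). E14 is a feeder-independent line, given here with the strain label 12910la. The cells of all 4 libraries grew on gelatin in medium with serum and added mouse LIF, so LIF was supplied from outside in both groups. The labels do not say whether the knockout libraries come from 1 clone or several, whether the libraries of a group are separate cultures, or whether the wild-type cells received the empty puromycin vector that the treatment text mentions. The p-values therefore measure the spread between these libraries, which may be technical.

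LIF, a cytokine, binds Lifr, which pairs with Il6st (gp130), the signalling chain shared by the interleukin-6 family. The JAK kinases bound to these chains then phosphorylate STAT3, which moves to the nucleus and switches on its targets. In mouse embryonic stem cells this route helps to hold the undifferentiated state, and Socs3, itself a target, acts back on the receptor and the kinases to damp the signal. Activity of the pathway lies in phosphorylation, which RNA counts do not measure.

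The targets moved in opposite directions within 1 family, the Pim genes. The DNA before the RefSeq starts of these genes and of Socs3 is shown first. These genes were chosen for printing after the changes were seen, and a link between the letters and the changes was not tested. The stretches are from RefSeq on GRCm38.p6 (the same build as mm10), written 5′ to 3′ on the strand of the gene. For the Pim genes they run from position -250 to -91 and for Socs3 from -180 to -101, counted from the RefSeq start. None of the printed bases lies in an exon that GENCODE gives the gene. The Socs3 stretch does lie inside the span that GENCODE gives the gene (117966079 to 117970047), and those of the Pim genes lie outside theirs. They are chr17:29490535-29490694 on the + strand for Pim1, chrX:7878056-7878215 (+) for Pim2, chr15:88861944-88862103 (+) for Pim3 and chr11:117969467-117969546 (-) for Socs3. Capitals mark every match, on either strand, to the STAT core TTCNNNGAA, the octamer ATTTGCAT, the CCAAT box CCAAT or the GC box GGGCGG. No match in these stretches overlaps another.
Pim1: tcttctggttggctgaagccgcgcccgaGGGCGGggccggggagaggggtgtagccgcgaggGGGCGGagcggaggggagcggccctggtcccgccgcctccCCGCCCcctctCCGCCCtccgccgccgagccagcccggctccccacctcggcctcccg
Pim2: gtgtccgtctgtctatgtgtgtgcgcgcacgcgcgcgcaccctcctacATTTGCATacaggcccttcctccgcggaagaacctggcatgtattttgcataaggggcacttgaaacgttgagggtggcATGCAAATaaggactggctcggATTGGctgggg
Pim3: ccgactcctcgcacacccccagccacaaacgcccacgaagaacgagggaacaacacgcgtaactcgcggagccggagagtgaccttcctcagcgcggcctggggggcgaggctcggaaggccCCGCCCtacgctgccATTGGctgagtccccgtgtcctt
Socs3: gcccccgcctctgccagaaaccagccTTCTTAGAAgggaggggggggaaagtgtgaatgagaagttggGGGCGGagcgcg

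Pim2 was the only member with an octamer, the motif read by POU factors such as Oct4, in its 300-base window (250 bases before to 50 after the start), and it had 2, at positions -202 and -123. The octamer occurs in 1.74% of the 32851 RefSeq windows of this length. Pim1 had no octamer and 7 GC boxes in the same kind of window, all 7 of them in the first of its 2 windows. Socs3 was the only member with a STAT core, TTCTTAGAA, at position -154. That core occurs in 8.30% of windows, in 1 of the 10 members, in 2 of the 30 other pathway genes with a window (Cish and Gab1) and in 0 of the 7 further STAT3 targets with one. A GC box was present in at least 1 window of all 10 members, which have 12 windows in all, of 70% of the 30 other pathway genes and of 57.1% of the 7 further targets, and it occurs in 35.7% of single windows. A CCAAT box was present in 60% of the members, 43.3% of the other pathway genes and 14.3% of the further targets, and in 37.4% of single windows. These matches describe the letters of the windows, and binding was not measured.

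Library totals were 22611434 to 25344190 counts. Ssrp1, the targeted gene, stood at 282.2 and 305.7 CPM (normalised counts, scaled to library size as for all genes here) in the controls, against 305.5 and 327.3 CPM in the knockout-labelled libraries. The groups overlapped, and the transcript was not called different (log2 fold change 0.11, 95% interval -0.03 to 0.24, edgeR adjusted p 0.226). It was called higher with scaling by library totals (adjusted p 0.0308) and without labelled knockout 1 (0.0108). The transcript level therefore does not check the labels. Gm26917 and Gm42418, which resemble ribosomal RNA, together took 9.72% to 10.3% of counts in controls and 4.64% to 6.30% in the knockout-labelled libraries. Their part in the results was not tested beyond scaling without them, which left the number of members called in each direction at the same 2 higher and 4 lower.

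Among the 10 genes, 2 rose (Jak1 and Pim2) and 4 fell (Stat3, Socs3, Pim1 and Pim3). Over all 17482 genes tested, 33.6% were called by edgeR's quasi-likelihood test at an adjusted p under 0.05, 16.5% higher and 17.2% lower. Among the 10817 genes with a mean of at least 5 CPM, the range in which all members lie, 41.3% were called, 18.6% higher and 22.7% lower. Control and knockout-labelled values stood apart, without overlap, for 9 of the 10 members and for 66.6% of all genes tested. As a group the members had a median log2 fold change of -0.08, against 0.00 over all genes, and their values ran from -0.58 (Pim3) to 0.69 (Pim2). Stat3, Pim2 and Pim3 were called under each of the 11 alternative analyses; Jak1, Socs3 and Pim1 each lost the call under 3 or more. Without control 1 the counts were 1 higher and 2 lower, and without control 2 they were 1 higher and 3 lower. Scaling by library totals gave 3 higher and 2 lower, while over all genes the share of rises among calls moved from 49.0% to 63.7%.

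**Figure D1:**
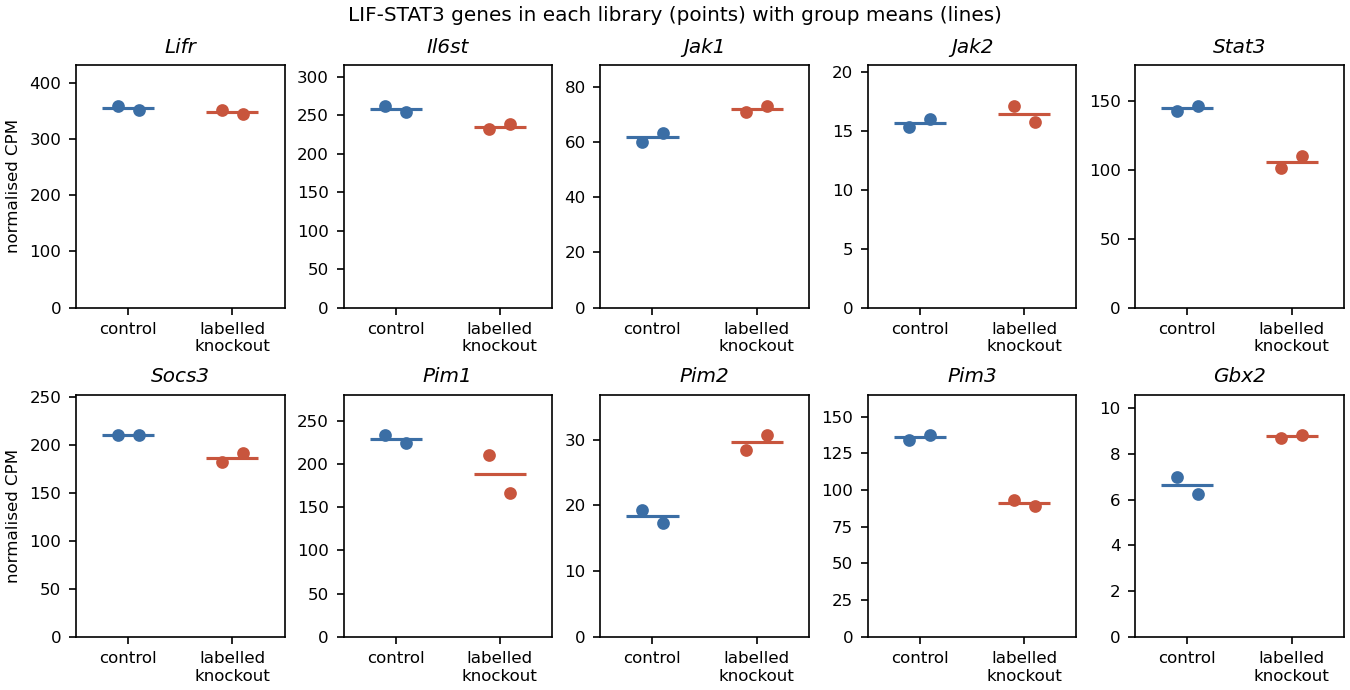
Normalised CPM of each of the 10 genes (vertical axes from 0, 1 panel per gene) in the 2 control and the 2 labelled knockout libraries, with lines at the group means. Pim2 lies at 17.3 and 19.4 CPM in controls and at 28.4 and 30.7 in the other libraries, Stat3 and Pim3 lie lower in both libraries labelled knockout, and the points of Lifr stay between 345.6 and 359.6.

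The receptor chains stayed close to their control levels. Lifr (chromosome 15, 7090614 to 7197489, mm10) stood at 359.6 and 351.3 CPM in the controls, against 351.2 and 345.6 CPM in the knockout-labelled libraries. The groups are apart by less than the gap between replicates. Its log2 fold change was -0.03 (95% interval -0.15 to 0.10, edgeR adjusted p 0.749) and 0.05 with scaling by library totals (0.524). In the first of these a change beyond 0.15 in either direction lies outside the interval. Il6st (chromosome 13, 112464070 to 112510086) was at 262.8 and 254.6 CPM in controls, against 231.8 and 238.3 CPM in the knockout-labelled libraries. Both of the latter were below both controls, with a log2 fold change of -0.14 (-0.27 to -0.01), but this missed the threshold after adjustment (edgeR adjusted p 0.0926). Without labelled knockout 2, the adjusted p was 0.0151 at -0.16, and with scaling by library totals it was 0.529 at -0.06. Both genes are among those of highest CPM in these cells, at the 97.7th and 95.9th percentile of mean CPM among genes tested, without correction for length. Per kilobase of exon, there were 0.707 ± 0.004 Il6st transcripts to 1 of Lifr in controls and 0.655 ± 0.020 in the knockout-labelled libraries (SD, n = 2; exact permutation p 0.333, 2-sided, the smallest that 2 against 2 libraries can give, adjusted p 0.357).

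Of the receptor-bound kinases, Jak1 was higher and Jak2 was not called different. Jak1 (chromosome 4, 101152367 to 101265282), the kinase with the larger share of the transcripts of this pair, was at 60.0 and 63.2 CPM in controls and rose to 71.0 and 73.2 CPM. The log2 fold change was 0.23 ± 0.07 (SE, edgeR adjusted p 0.0226). The call was lost without control 1 (adjusted p 0.275), without control 2 (0.0907) and by DESeq2 (0.0529). Jak2 (chromosome 19, 29251828 to 29313080) was at 15.4 and 16.0 CPM in controls, against 17.2 and 15.8 CPM in the knockout-labelled libraries, and the groups overlapped. Its log2 fold change was 0.07 with a 95% interval from -0.18 to 0.32 (edgeR adjusted p 0.698). Jak2 had 339 to 401 counts per library, and its interval is wider than those of the receptors.

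Stat3 itself fell. Stat3 (chromosome 11, 100885098 to 100939540) was at 142.9 and 146.9 CPM in the controls, against 101.7 and 110.0 CPM in the knockout-labelled libraries. Both controls were above both other libraries, by more than the gap between replicates. The log2 fold change was -0.45 ± 0.07 (95% interval -0.59 to -0.31, edgeR adjusted p 3.03e-05), a level 0.730 times that of the controls. Over the 11 alternatives the value ran from -0.51 to -0.37, and the highest adjusted p was 5.4e-04. Its exons share 72 of 9527 bases with those of Stat5a on the other strand.

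Socs3, the feedback inhibitor, was slightly lower. Socs3 (chromosome 11, 117966079 to 117970047) was at 209.8 and 210.2 CPM in controls, against 181.5 and 190.9 CPM in the knockout-labelled libraries. The controls were nearly equal, and both other libraries were below them. The fall was -0.17 ± 0.06 on the log2 scale (edgeR adjusted p 0.0398), and the call was lost under 6 of 11 alternatives. Of these, scaling by library totals (-0.09, adjusted p 0.295), asking 5 CPM of 2 libraries (-0.15) and DESeq2 (-0.17) changed the processing. The others left out control 1 (-0.18), control 2 (-0.17) or labelled knockout 1 (-0.14). By library totals the median of all genes moved by 0.08.

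The Pim kinases, serine-threonine kinases that act on growth and survival and of which Pim1 and Pim3 are known to aid self-renewal of mouse embryonic stem cells, did not move as a family. Pim3 (chromosome 15, 88862186 to 88865726) was at 134.1 and 137.6 CPM in the controls, against 93.1 and 89.1 CPM in the knockout-labelled libraries. Both controls were above both other libraries, which lay close together. The log2 fold change was -0.58 ± 0.07 (edgeR adjusted p 1.37e-06), the smallest adjusted p among the members. Pim2 (chromosome X, 7878262 to 7883432) went the other way: 19.4 and 17.3 CPM in controls against 28.4 and 30.7 CPM. Again the groups were apart by more than their replicates were. Its rise was 0.69 ± 0.11 on the log2 scale (edgeR adjusted p 5.59e-05), 1.61-fold, and it kept the call in 11 of 11 alternatives, at 0.61 to 0.77. The 95% intervals of Pim2 (0.46 to 0.92) and Pim3 (-0.72 to -0.44) lie on opposite sides of 0; the difference between the genes was not tested in the fit.

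Pim1 (chromosome 17, 29490753 to 29496112), at 233.4 and 224.6 CPM in controls, was at 210.1 CPM in labelled knockout 1 and 166.0 CPM in labelled knockout 2. The knockout-labelled libraries were both lower than the controls but were further from each other than the nearer one was from the controls, at a ratio of 0.790 between them, the widest gap between replicates among the 10 genes. The fall, -0.28 ± 0.08 (edgeR adjusted p 0.0110), accordingly depended on a single library: it was -0.13 without labelled knockout 2 (adjusted p 0.0757) and -0.46 without labelled knockout 1 (7.05e-14). The call was also lost without control 1 (-0.26, adjusted p 0.0523) and with scaling by library totals (-0.20, 0.0643). The exons of Pim1 share 488 of 3362 bases with the antisense gene Gm26885, which stood at 3.10 to 5.13 CPM over the 4 libraries. Without the strand setting of the counting, reads in the shared bases cannot be told apart, and their part in the Pim1 values was not tested.

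Within the family, Pim1 and Pim3 made up most of the transcripts. Per kilobase of exon, Pim2 held 5.26% and 4.78% of the summed Pim level in controls and 9.16% and 11.3% in the knockout-labelled libraries. The share of Pim3 was 42.0% and 43.7%, and then 34.6% and 37.8%. Pim1 stayed at 50.9% to 56.3%, with overlapping groups. The summed level per kilobase was 130.7 ± 1.36 in controls and 104.0 ± 9.87 in the knockout-labelled libraries (SD, n = 2). The exact permutation p was 0.333 for the shares of Pim2 and Pim3 and for the sum, and 1 for that of Pim1 (2-sided; 15 quantities of this kind were compared, adjusted p 0.357 where p was 0.333).

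**Figure D2:**
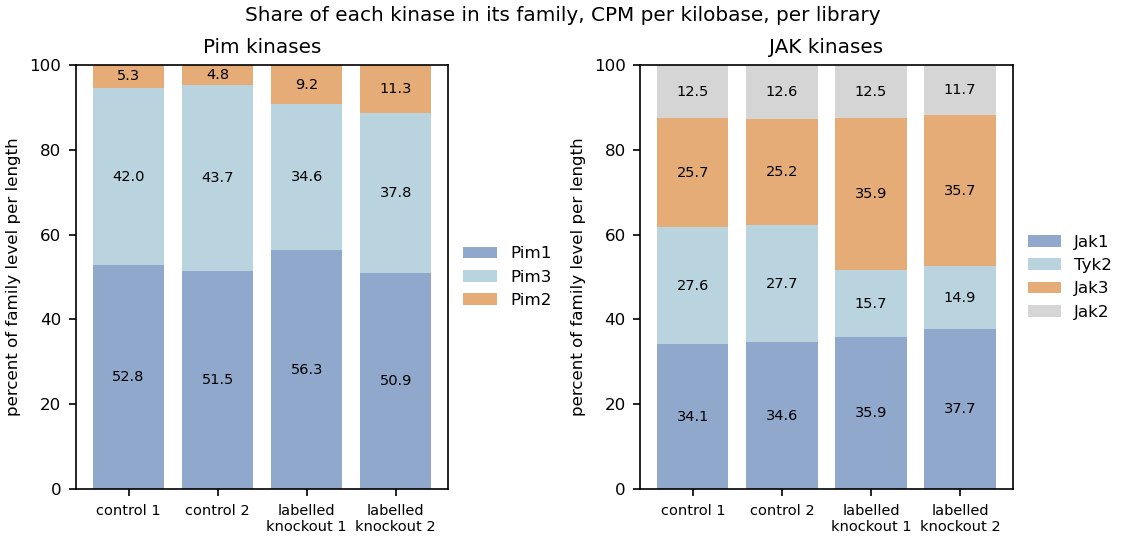
Share of each Pim kinase (left) and of each JAK kinase (right) in the summed level of its family, in percent of CPM per kilobase of exon, for each of the 4 libraries. Pim2 takes 4.78% and 5.26% in controls and 9.16% and 11.3% in the others, Jak3 25.2% and 25.7% and then 35.7% and 35.9%, and Tyk2 27.6% and 27.7% and then 14.9% and 15.7%.

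Gbx2 (chromosome 1, 89927956 to 89931179), a homeobox factor that can hold mouse embryonic stem cells undifferentiated without LIF when supplied in excess, was the member with the fewest reads. Its counts were 154 and 153 in controls, against 203 and 210 in the knockout-labelled libraries. These are 6.98 and 6.25 CPM against 8.69 and 8.83 CPM, without overlap. The log2 fold change, 0.41 (95% interval 0.06 to 0.75), missed the threshold (edgeR adjusted p 0.0623). It passed with scaling by library totals (0.49, adjusted p 0.0266) and when genes had to reach 5 CPM in 2 libraries (0.42, 0.0496), and DESeq2 gave 0.181. The exons of Gbx2 share 946 of 2177 bases with D130058E05Rik on the other strand, which was at 6.80 and 7.19 CPM in controls and fell to 4.88 and 3.78 CPM (-0.69 ± 0.20, edgeR adjusted p 0.0092). Its mean was 6.99 CPM beside 6.62 for Gbx2 in controls, and 4.33 beside 8.76 in the knockout-labelled libraries. The strand setting of the counting is not given in the sources used here, and without strand, reads in the shared bases cannot be told apart.

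Ordered by level per kilobase of exon, Socs3, Pim1 and Pim3 came first and Jak2 and Gbx2 last in both groups. In controls the order was Socs3 (72.6 ± 0.10), Pim1 (68.1 ± 1.86), Pim3 (56.0 ± 1.02), Lifr (33.0 ± 0.55), Il6st (23.3 ± 0.52), Stat3 (15.2 ± 0.30), Jak1 (8.53 ± 0.31), Pim2 (6.56 ± 0.52), Jak2 (3.12 ± 0.09) and Gbx2 (3.04 ± 0.24), each as CPM per kilobase, mean ± SD of 2 libraries. Jak2 and Gbx2 overlapped, and no other neighbours did. In the knockout-labelled libraries, Pim2 (10.6 ± 0.59) stood above Jak1 (9.98 ± 0.21) and overlapped Stat3 (11.1 ± 0.62), and Gbx2 (4.02 ± 0.05) stood above Jak2 (3.28 ± 0.19). With the length of the longest transcript in place of all exons, Pim1 was above Socs3 in controls (84.9 against 82.3), and Pim2 overlapped Jak1 in the knockout-labelled libraries. The order of Socs3 and Pim1, and that of Pim2 and Jak1, thus rests on the length used.

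**Figure D3:**
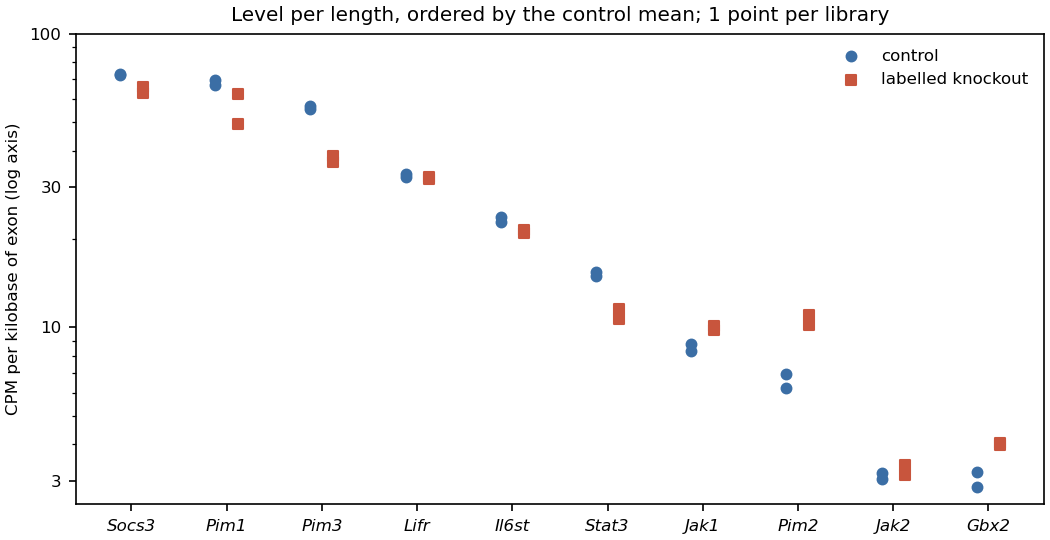
Level of each member in CPM per kilobase of exon (log axis), 1 point per library, with the genes ordered by their control mean. Control means run from 3.04 for Gbx2 to 72.6 for Socs3, and in the knockout-labelled libraries Pim2 reaches the level of Stat3 and Jak1.

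The other genes of the pathway, 41 in all of which 38 were tested, also moved in both directions: 9 rose, 7 fell and 22 were not called, with a median log2 fold change of 0.02. Over all genes tested 33.6% were called, and 41.3% of those with a mean of at least 5 CPM. Of the 16 pathway genes called, 8 kept the call in every alternative in which they could be tested. Without control 2 the counts were 4 higher and 4 lower. Lif itself, the ligand of the receptor pair, rose from 3.99 and 5.31 CPM to 8.51 and 7.86 CPM (0.81 ± 0.19, edgeR adjusted p 0.0023), and was called in each of 11 alternatives. Of the other ligands that act through Il6st, Clcf1 fell from 0.982 ± 0.171 to 0.298 ± 0.124 CPM (-1.71 ± 0.56, edgeR adjusted p 0.0237), on 19 and 27 against 9 and 5 counts, a call lost under 4 of 10 alternatives. Cntf (1.12 and 0.658 CPM) and Ctf1 (1.61 and 1.93 CPM) were not called. No count of Il6 was seen in any library, which allows up to 0.118 to 0.133 CPM in each, here by library totals. Osm, with 0 and 1 counts in controls against 5 and 7 in the knockout-labelled libraries, was too low for the test and is outside the naming rule, chosen after its values were seen.

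Partner receptor chains were low, at 0.210 to 1.23 CPM per kilobase in controls among the 4 tested, against 33.0 for Lifr. Il6ra, the interleukin-6 binding chain, rose from 1.82 ± 0.317 to 3.39 ± 0.043 CPM (0.90 ± 0.28, edgeR adjusted p 0.0180), a call lost without control 2 (0.128) and by DESeq2 (0.0645). Il27ra, which pairs with Il6st for interleukin-27, fell from 4.32 ± 0.501 to 1.95 ± 0.755 CPM (-1.14 ± 0.29, adjusted p 0.0039). Il11ra1 (5.28 and 3.65 CPM, edgeR adjusted p 0.0552) and Cntfr (2.57 and 1.95 CPM, 0.333) were not called.

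The kinases of the family outside the members moved further than Jak1 and Jak2. Jak3, known for its work with the common gamma chain in lymphocytes, rose from 33.5 and 34.1 to 52.6 and 51.4 CPM (0.62 ± 0.08, edgeR adjusted p 9.7e-06). Tyk2, which can serve gp130 and interferon receptors, fell from 46.2 and 48.1 to 29.4 and 27.4 CPM (-0.73 ± 0.09, adjusted p 3.11e-06). Both were called in 11 of 11 alternatives. Per kilobase, Tyk2 went from 27.7% ± 0.03 to 15.3% ± 0.56 of the summed JAK level and Jak3 from 25.4% ± 0.39 to 35.8% ± 0.14, while the sum was 24.8 ± 0.67 and 27.1 ± 0.35. These shares were computed after the values were seen, and each exact permutation p was 0.333, the smallest possible.

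Among the STATs, Stat6, the interleukin-4 responsive member, fell beside Stat3, from 58.7 ± 6.71 to 42.2 ± 1.76 CPM (-0.48 ± 0.09, edgeR adjusted p 3.1e-04). Stat5a, outside the naming rule and chosen after its values were seen because its exons meet those of Stat3, fell from 6.73 to 4.77 CPM (-0.50, adjusted p 0.0466), a call lost under 6 of 11 alternatives. Stat3 made up 34.0% ± 1.17 of the summed STAT level per kilobase in controls and 29.7% ± 1.03 in the knockout-labelled libraries, and the sum went from 44.7 ± 0.65 to 37.4 ± 0.79 (exact permutation p 0.333 for each).

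Of 14 inhibitors 2 rose, 1 fell and 11 were not called, where 33.6% of all genes tested were called, and 41.3% of those with a mean of at least 5 CPM. Pias3, which binds STAT3 and blocks its DNA binding, fell from 30.8 and 35.1 to 22.8 and 21.3 CPM (-0.58 ± 0.10, edgeR adjusted p 2.1e-04). The phosphatase gene Ptpn6 rose from 25.9 ± 0.945 to 33.7 ± 1.29 CPM (0.38, adjusted p 0.0047, and 0.0743 without control 2). Cish, a SOCS family member induced by STAT5 and 1 of the 2 pathway genes with a STAT core in its window, rose from 6.18 ± 0.427 to 8.51 ± 1.27 CPM (0.46, adjusted p 0.0456), which was lost under 4 of 11 alternatives and was 0.30 without labelled knockout 2. Socs1, the closest relative of Socs3 in mode of action, was at 0.801 and 0.998 CPM (edgeR adjusted p 0.641).

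Of 7 adaptors that carry the signal from the receptor to the ERK and PI3K branches, 4 rose, 1 fell and 2 were not called, where 18.6% of all genes with a mean of at least 5 CPM were called higher and 22.7% lower. Ptpn11, the phosphatase that docks on gp130, rose from 70.2 ± 0.310 to 92.4 ± 2.18 CPM (0.40 ± 0.07, edgeR adjusted p 1.8e-04), and Grb2 from 69.0 ± 0.601 to 88.3 ± 0.386 CPM (0.36 ± 0.07, adjusted p 5.1e-04). Both were called in every alternative run. Gab1 (412.4 to 491.1 CPM) and Sos1 (93.9 to 114.1 CPM) rose by 0.25 and 0.28. Shc1 fell from 108.2 to 91.3 CPM (-0.25). Without control 2 these last 3 missed the threshold (edgeR adjusted p 0.0756, 0.0758 and 0.256), as did Gab1 without control 1 (0.0609) and Shc1 with scaling by library totals (0.0760).

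**Figure D4:**
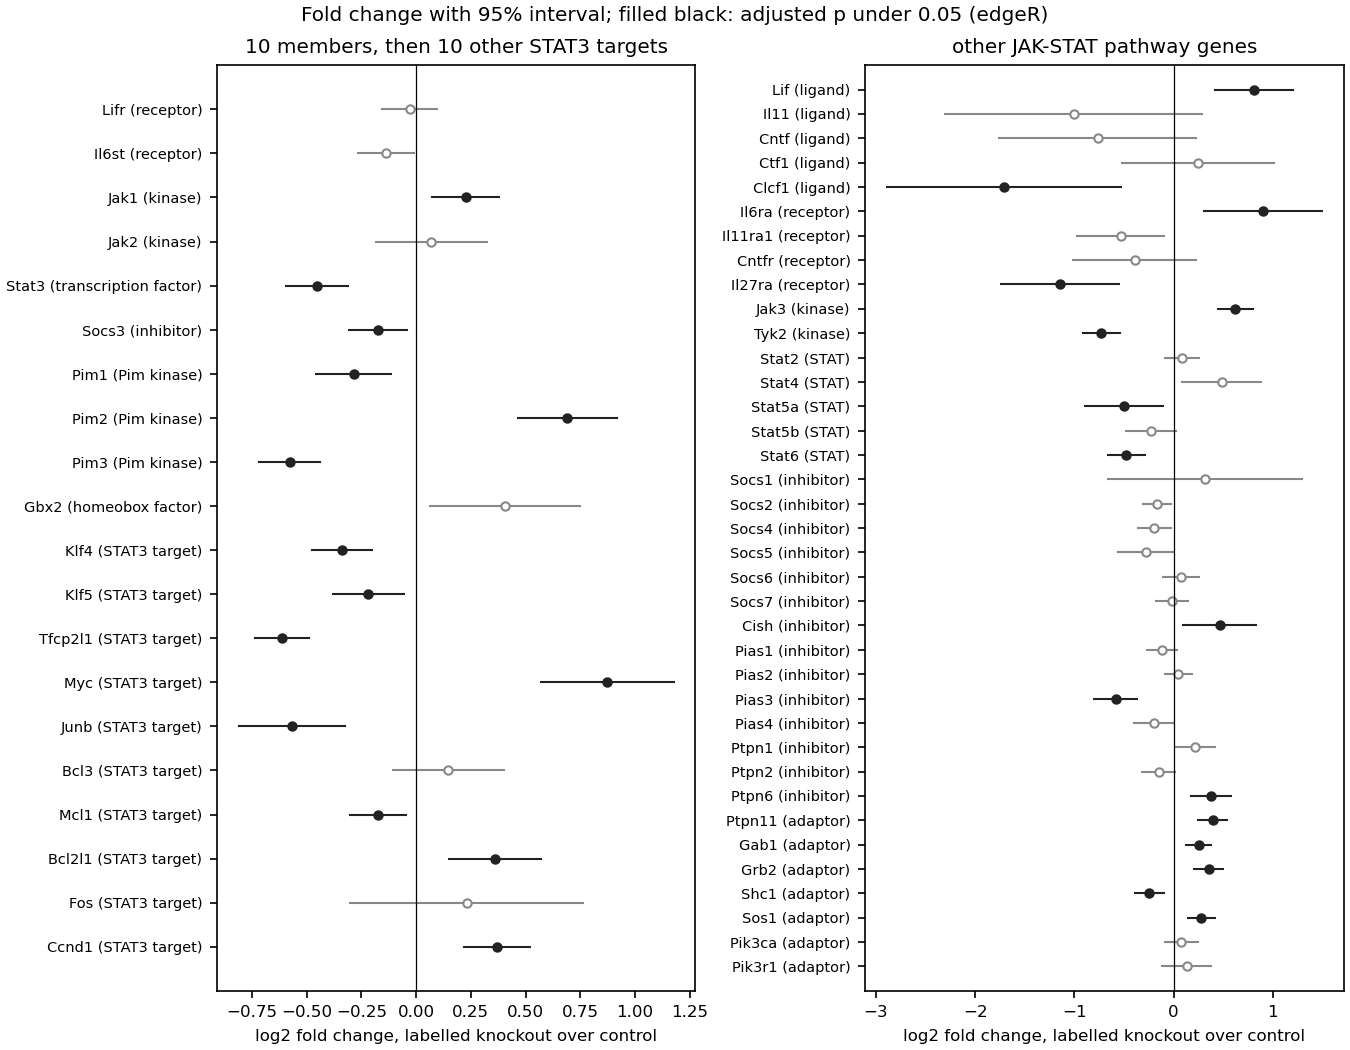
Log2 fold change of the knockout-labelled libraries over controls with its 95% interval, for the 10 members and 10 further STAT3 targets (left) and for 37 of the 38 other pathway genes tested (right), in order of role. Filled black points passed an adjusted p of 0.05 in edgeR, and called genes lie on both sides of 0 among the kinases, the Pim kinases, the further targets, the ligands, the inhibitors and the adaptors.

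Of 10 further genes described as STAT3 targets, 3 rose, 5 fell and 2 were not called (median -0.01), where 33.6% of all genes tested were called, and 41.3% of those with a mean of at least 5 CPM. Tfcp2l1, a transcription factor through which STAT3 sustains self-renewal, fell from 835.7 and 814.8 to 556.7 and 522.2 CPM (-0.61 ± 0.06, edgeR adjusted p 1.41e-07). Klf4, another such factor, fell from 170.3 and 159.7 to 132.5 and 128.4 CPM (-0.34 ± 0.07, adjusted p 4.6e-04), and Junb, of the AP-1 family, from 22.2 and 20.9 to 14.9 and 14.2 CPM (-0.57 ± 0.12, adjusted p 7.8e-04). The growth regulator Myc rose from 7.39 and 7.35 to 12.7 and 14.2 CPM (0.87 ± 0.15, adjusted p 1.0e-04) and the cyclin gene Ccnd1 from 61.0 ± 1.07 to 78.8 ± 0.655 CPM (0.37, adjusted p 4.6e-04). These 5 were called under each of 11 alternatives.

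Bcl2l1, which encodes the survival factor Bcl-xL, rose from 25.8 ± 2.32 to 33.2 ± 0.418 CPM (0.36, edgeR adjusted p 0.0083, and 0.178 without control 1). Klf5 (260.8 to 224.1 CPM, -0.22) and the survival gene Mcl1 (842.7 to 747.4 CPM, -0.17) were called lower but lost the call under 5 of 11 alternatives each. Klf5 was at -0.09 without labelled knockout 1, at -0.15 without control 1 and at -0.35 without labelled knockout 2. Bcl3 (16.5 and 18.2 CPM) and Fos (2.99 and 3.52 CPM) were not called. By library totals, by DESeq2, with 5 CPM asked of 2 libraries or without control 1, the number of lower targets was 3.

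**Figure D5:**
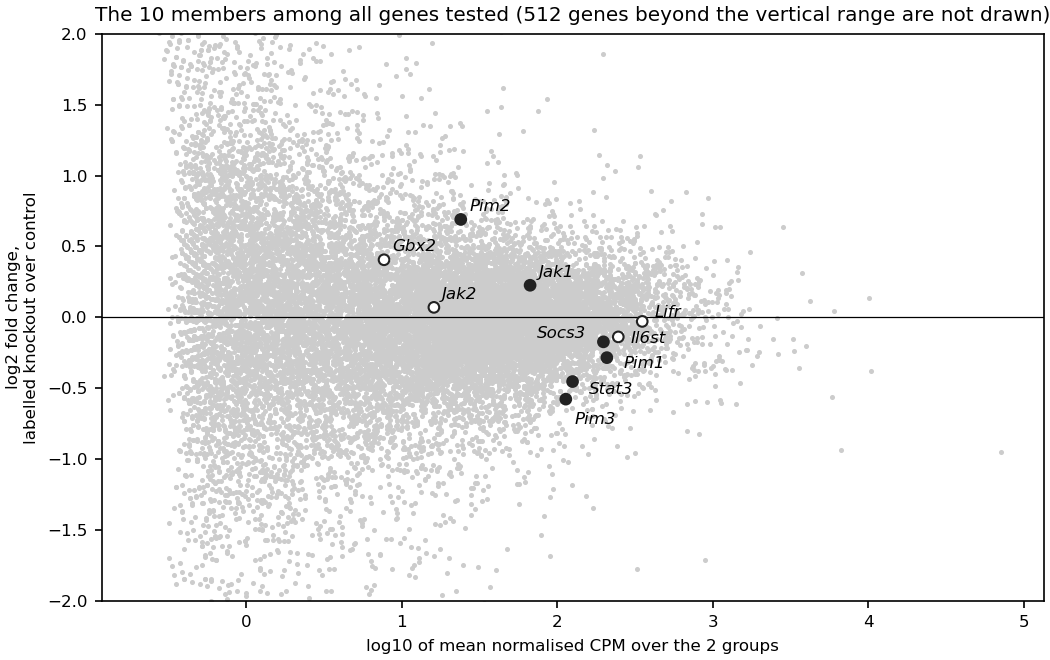
Log2 fold change against the log10 of mean CPM for all genes tested (grey) and the 10 members (filled where called, open where not). By mean CPM the members run from percentile 44.2 of the genes tested (Gbx2) to percentile 97.7 (Lifr). Among them Pim2 at 0.69 and Pim3 at -0.58 are the farthest from 0. The 512 genes beyond 2 log2 units are not drawn.

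The size of the members' changes was moderate when ranked among all genes tested, a set with many genes of lower CPM than any member. The absolute log2 fold change of Pim2 was at the 81.0th percentile of all genes tested, that of Pim3 at the 75.9th and that of Stat3 at the 67.7th, while Lifr was at the 5.80th. The rank of these changes among genes of like CPM was not computed, so their size beside such genes is not known. Pim2 had the widest range of log2 CPM over the 4 libraries, 0.81. The genes with the profile most like it, by the root mean square distance of centred log2 CPM over 4 libraries among 14845 genes of at least 1 CPM, were Hmgn2-ps1 (0.019; a processed copy whose reads may come from its parent), Eya1 (0.020) and Wdr46 (0.028). With 4 libraries in 2 groups, such a likeness is mostly that of the group difference.

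Markers of cell identity moved beside these genes. For comparison, 16.5% of all genes tested were called higher and 17.2% lower. Among genes with a mean of at least 5 CPM these shares were 18.6% and 22.7%. Among 10 embryonic stem cell markers, all with counts, 3 rose, 5 fell and 2 were not called; Pou5f1 stood at 401.0 and 415.7 CPM in controls and 322.3 and 310.2 CPM in the knockout-labelled libraries, and Nanog at 356.3 and 345.0 against 384.4 and 403.3 CPM. Their summed level was 5013 to 5165 CPM in controls and 4219 to 4242 CPM in the knockout-labelled libraries, and the labelled cell type has its markers in all 4 libraries, Fut4 alone being near 0 (0.136 to 0.770 CPM). Of 10 primitive endoderm markers 9 were tested, of which 7 rose and 0 fell, and their sum was 184.8 to 196.0 CPM against 275.0 to 276.8 CPM. Gata6 was at 0.589 and 0.858 CPM in controls, against 4.58 and 4.08 CPM in the knockout-labelled libraries. Fibroblast and feeder markers summed to 38.8 and 40.1 CPM in controls and 33.5 and 37.0 CPM, with 1 higher and 1 lower of 4 tested; Postn, Lum and Dcn were at 0 in every library. Trophoblast markers summed to 9.34 to 9.88 CPM and 12.8 to 15.3 CPM (1 higher, 0 lower of 4 tested) and neural markers to 159.4 to 166.4 CPM and 89.2 to 93.3 CPM (1 higher, 3 lower of 6 tested; Ncam1 alone went from 82.2 and 86.7 to 14.5 and 17.4 CPM). In bulk RNA a change in the share of a cell type and a change of RNA per cell cannot be told apart, and the part of other cell types in the values of the 10 genes was not tested.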

How the data were processed

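RNA was measured in 4 libraries, 2 of wild-type and 2 of Ssrp1-targeted E14 cells. The authors deposited whole-number read counts per gene symbol, with no normalization. The submitters' processing notes name cutadapt, HISAT2, featureCounts and the build mm10. Versions, annotation, strand setting and the handling of multiply mapped reads were not found there. The headers of the count table write OK for the KO of the titles, and gene and number match 1 sample each.

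Genes passing edgeR's filterByExpr (version 4.0.16, R 4.3.3; count at least 10, total at least 15) were TMM-scaled and tested by the quasi-likelihood method of edgeR (glmQLFTest, 2-sided), adjusted over all 17482 genes by Benjamini-Hochberg with a threshold of 0.05. CPM are counts scaled to the TMM library size. The standard error is the log2 fold change over the square root of F, and 95% intervals use the t quantile of the moderated fit. Level per length is CPM per kilobase of all exons in GENCODE M21. The fit was tested on simulated counts. Alternatives were DESeq2 1.42.0, other scalings and filters, a replicate block and leaving out each library.

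The members and lists were chosen with earlier results of these data known. Named are the 10 members and Ssrp1; of the other pathway list, ligand and receptor genes with at least 1 CPM in a group, the called genes of smallest adjusted p (up to 15), and Lif, Socs1 and Tyk2; all STAT3 targets with at least 1 CPM; and the 3 genes most like the member of widest range. 1 further gene that the rule names is not reported here. Shares within the JAK and STAT families were added after the data were seen. Replicates differed by more than counting noise (chi-square per degree of freedom 3.37 between controls, 11.5 between the knockout-labelled libraries). That measure includes Gm26917 and Gm42418 and was not computed without them. In the knockout-labelled libraries Gm26917 stood at 55530 and 41820 CPM and Gm42418 at 6046 and 3071 CPM. In controls they stood at 91078 and 97193 CPM and at 8551 and 8935 CPM. A count of 0 allows up to 3 counts in a library, for counting error only. That is 0.118 to 0.133 CPM by library totals, without the TMM scaling used for the other CPM.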

Additional observations from a re-analysis of the deposited data

How the results depend on the processing

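Of the values of the 10 members under the 11 alternatives, 94 kept their direction and their side of the threshold, 12 lost the call, 3 gained it and 1, which was not called, turned its direction: Lifr was at 0.0539 with scaling by library totals. By library totals, Socs3 was at -0.09 and Pim1 at -0.20 without a call, Gbx2 was called at 0.49, and 2 members were lower. By DESeq2, Jak1 (0.23) and Socs3 (-0.17) missed the threshold, 1 member was higher and 3 STAT3 targets were lower. With at least 5 CPM in 2 libraries, Socs3 (-0.15) was not called and Gbx2 (0.42) was. That filter left 3 STAT3 targets lower, as did scaling by library totals. The cause of these changes was not tested. Leaving out each library in turn gave ranges of -0.16 to -0.12 for Il6st, 0.18 to 0.26 for Jak1, -0.21 to -0.14 for Socs3 and -0.46 to -0.13 for Pim1. The numbers called then ran from 1 to 2 members higher, 2 to 4 lower, 4 to 10 other pathway genes higher, 4 to 7 lower, and 3 to 5 STAT3 targets lower. Over all genes they ran from 1915 to 2995 higher. A lone library in a group is assumed there to vary like the other group. The share of all genes called in each fit without 1 library was not set beside these numbers, here or above. A loss of calls particular to the members therefore cannot be told from a general one.

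Replicate numbers are shared between the groups, but nothing says that they pair the libraries, and the deviations of same-numbered libraries from their group means correlated at 0.008 across genes. With a replicate block, 2 members were higher and 4 lower, as without it, and 3072 genes were higher and 3216 lower over the table; Pim1 was at -0.29 (edgeR adjusted p 1.5e-04). For the other genes of the lists, 478 values kept direction and call, 33 lost a call, 11 gained one and 7, of genes not called in either fit, turned direction. Socs7 was at 0.0689 by library totals and at 0.0042 with the 5 CPM filter. Over the fits without 1 library, Ctf1 ran from -0.158 to 0.649 (below 0 without control 1 and without labelled knockout 2), Stat2 from -0.0093 to 0.172 (below 0 without labelled knockout 2), Pik3ca from -0.0319 to 0.18 (without labelled knockout 1) and Pik3r1 from -0.0169 to 0.288 (without control 1). Gbx2 and Jak2 have the fewest counts of the members.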
